A study of Mus musculus with 34 samples.

Results

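The 44 genes described here encode the working parts of the lysosome: 5 subunits of the membrane sector (V0) of the vacuolar proton pump, 9 subunits of its cytosolic sector (V1) with an accessory subunit among them, 9 cathepsins, 10 glycosidases and other lumenal proteins, 8 lysosomal membrane proteins, and 3 transcription factors of the TFEB family. They were taken by gene symbol from 2 count tables of RNA sequencing in mouse bone marrow-derived macrophages, and all 44 were found among the 52550 genes of the main table and among the 25498 genes of a smaller set that the labels call batch 1. Marrow of mice aged 10 to 14 weeks was cultured for 6 days in M-CSF (10 ng/ml), a growth factor that drives macrophage formation, and the replated cells rested for 24 h. They then received low-density lipoprotein (LDL, 200 mg/dL), the main cholesterol carrier of plasma, or vehicle for 24 h. Vav-Cre, which drives the recombinase across the blood lineages, was present in all mice, the wild-type (WT) controls included. Dnmt3aKO mice had the floxed Dnmt3a allele (Dnmt3afl/fl;Vav-Cre), Tet2KO mice the floxed Tet2 allele (Tet2fl/fl;Vav-Cre), and Jak2VF mice 1 mutant and 1 normal allele of the kinase Jak2 (Jak2V617F/WT;Vav-Cre). These are mutations of clonal hematopoiesis, the expansion of mutant blood stem cells. Of 34 libraries, 24 formed the main set (8 groups of 3). Batch 1 comprised the other 10, from WT and Tet2KO macrophages, where each genotype had 3 vehicle and 2 LDL libraries.

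Lysosomes take up lipoproteins and other cargo from the endocytic pathway and break them down with acid hydrolases. The V-ATPase pumps protons into the lumen to keep it acid, the cathepsins and glycosidases do the digesting, and membrane proteins such as NPC1, with its lumenal partner NPC2, hand the cholesterol freed from LDL to the rest of the cell. TFEB, TFE3 and MITF are related transcription factors that bind a short palindrome in the promoters of many lysosomal genes and are held in the cytoplasm by mTORC1 on the lysosomal surface when nutrients are plentiful.

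Levels are given in CPM, the count relative to the TMM-scaled library total, and differences on the log2 scale, with a standard error (SE), from edgeR's quasi-likelihood test over all genes tested, 19444 in the main set and 15481 in batch 1. A gene was called changed at a Benjamini-Hochberg adjusted p under 0.05. All 44 genes passed the filter on low counts in both sets. Libraries of the main set held 24105237 to 43904761 counts, those of batch 1 15171143 to 44449473. Nothing in the labels ties the libraries of 1 group to different animals or cultures, and the p-values therefore measure only library-to-library spread, which may be technical. In bulk samples such as these, fewer cells of a type and less RNA per cell cannot be told apart. Dnmt3a was at 54.6 to 71.2 CPM in WT with vehicle and at 32.6 to 36.6 CPM in Dnmt3aKO with vehicle. Tet2 was not lower in Tet2KO of the main set (32.8 to 38.6 CPM with vehicle against 19.9 to 32.2 in WT), where counts over the whole gene include exons that a floxed allele keeps. In batch 1 Tet2 was at 16.8 to 24.3 CPM in Tet2KO and at 24.1 to 27.9 in WT, both with vehicle. The Jak2 allele is a point mutation, which a count does not check. The level of Jak2 was 54.6 to 68.2 CPM in Jak2VF and 78.7 to 91.7 in WT with vehicle. With LDL it was 64.2 to 74.7 CPM in Jak2VF and 71.3 to 97.7 in WT. All 7 macrophage markers were present in every library, and their summed level ran from 18092 to 32716 CPM in the main set. Fibroblast collagens were also abundant there: the summed stromal markers ran from 7635 to 16192 CPM in the main set and from 407 to 3340 CPM in batch 1. Libraries differed in the balance of short and long transcripts. A length index, the log2 level of genes with up to 2652 bases of exon less that of genes with 6823 or more, was highest in WT LDL library 1 (0.68), Jak2VF vehicle library 1 (0.56) and Tet2KO LDL library 1 (0.49), and ran from -0.31 to 0.34 in the other 21 libraries of the main set. The other WT LDL libraries were at -0.10 and 0.22, the other Jak2VF vehicle libraries at 0.34 and -0.15 and the other Tet2KO LDL libraries at -0.31 and -0.02. Calls and counts that leaving out 1 library changed are given with and without it.

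The 44 genes differed widely in level. For a level per kilobase, exon length was the union of exons over all annotated transcripts of a gene. It was 1358 bases for Ctss, 2744 for Psap and 6051 for Ctsb, so the order of genes also depends on this annotation. Per kilobase of exon, the only scale on which levels of different genes are compared here, Ctss (cathepsin S, which trims the invariant chain of MHC class II) led in WT with vehicle at 1907 CPM per kb. Psap, the precursor of the saposins that help degrade sphingolipids, followed at 1430, Ctsb (cathepsin B) at 1254 and Ctsd (cathepsin D, the lysosomal aspartic protease) at 1024. The libraries of Ctss, 1739 to 2152, lay above those of Psap, 1346 to 1509. Psap in turn lay just above Ctsb, 1187 to 1332, while Ctsb and Ctsd overlapped. Gpnmb (a transmembrane glycoprotein of lipid-laden macrophages) at 565 and Grn (progranulin, the precursor of the lysosomal granulins) at 541 were not separated by their libraries. Proton pump subunits stood lower: Atp6ap1 (accessory subunit) was at 195, Atp6v1a (the ATP-hydrolysing subunit) at 83.7, Atp6v0d1 (the widely expressed d subunit) at 71.2 and Atp6v0d2 (its macrophage and osteoclast form) at 35.5 CPM per kb. Npc1 (cholesterol export) was at 18.8 and Mcoln1 (the lysosomal calcium channel TRPML1) at 8.05. Annotated exons of other genes cover 34.4% of the exons of Ctsd, 26.8% of Ctsl, 17.4% of Ctsa, 12.8% each of Ctsb and Hexa, 11.8% of Atp6v0b and 9.31% of Lamp1. The strand used in counting is not given in the sources used here, so these counts are uncertain to that extent. The transcription factors were among the lowest, Tfe3 at 13.2, Mitf at 9.16 and Tfeb at 2.96 CPM per kb. Together the 44 genes took 2.99% to 4.31% of all counts in the main set and 6.70% to 10.5% in batch 1.

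**Figure D1:**
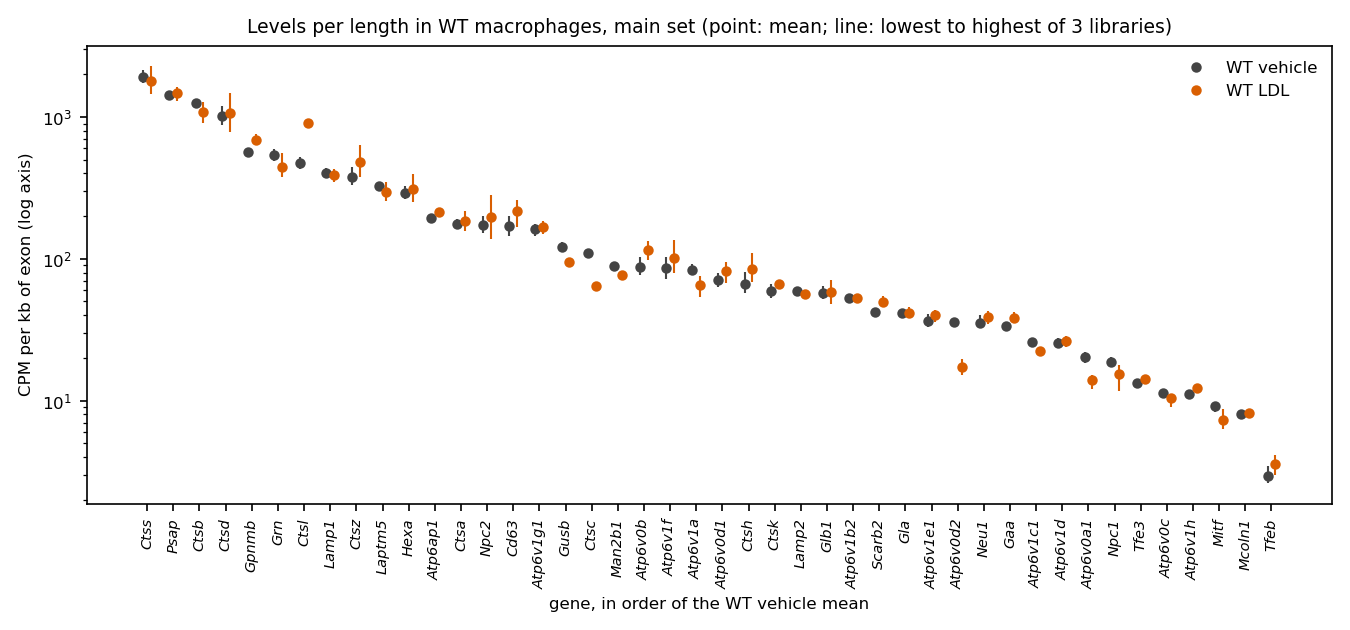
Levels of the 44 lysosomal genes in WT macrophages in CPM per kb of exon (log axis), in order of their mean with vehicle; points are means and lines run from the lowest to the highest of 3 libraries, grey for vehicle and orange for LDL. The order runs from Ctss, 1907 CPM per kb with vehicle, to Tfeb, 2.96.

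TFEB and its relatives bind the palindrome TCACGTGA, which contains the shorter E-box CACGTG; each reads the same on both strands. In RefSeq promoters of GRCm38.p6, taken from 250 bases before to 50 bases after each transcription start, 36 of the 44 genes had an entry. The palindrome TCACGTGA was found in 6 of these 36 (16.7%), Ctsa, Ctsd, Mcoln1, Atp6v0d1, Atp6v1a and Gla, against 1.12% of 27025 genes with a promoter entry. CACGTG was found in 11 of 36 (30.6%), against 8.09% of all genes. Atp6v1h, Ctsh, Atp6v0d2, Atp6v1c1, Npc1, Atp6v1g1, Atp6v1b2 and Ctsb were without an entry. Stretches of 4 of these promoters are printed to show where the palindrome sits, in the direction of transcription and with TCACGTGA in capitals. In the Atp6v1a stretch (chr16:44139334-44139441, minus strand) the palindrome begins 132 bases before the start. In the Atp6v0d1 stretch (chr8:105566061-105566118, minus strand) it begins 4 bases before the start and runs across it. It begins 46 bases before the start in the Mcoln1 stretch (chr8:3500423-3500518, plus strand) and 99 bases before it in the Ctsd stretch (chr7:142387869-142387976, minus strand).
Atp6v1a: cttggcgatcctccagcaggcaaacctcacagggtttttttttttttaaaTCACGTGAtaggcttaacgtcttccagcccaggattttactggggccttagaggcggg
Atp6v0d1: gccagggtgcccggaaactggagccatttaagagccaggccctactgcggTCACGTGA
Mcoln1: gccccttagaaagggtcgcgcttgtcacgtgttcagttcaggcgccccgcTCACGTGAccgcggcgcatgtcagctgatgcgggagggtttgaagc
Ctsd: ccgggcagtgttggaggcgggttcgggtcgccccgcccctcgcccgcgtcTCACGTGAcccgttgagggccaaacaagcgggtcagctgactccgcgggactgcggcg
A match of letters is a description and does not show binding. With LDL, the smallest adjusted p over the 4 genotypes was 0.0518 for Atp6v1a, 0.0778 for Atp6v0d1, 0.0809 for Mcoln1 and 0.099 for Ctsd, so the 4 genes shown were not called in any LDL comparison.

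The first question was how LDL loading shifted lysosomal transcripts in each genotype. Lysosomal genes did not move as a block: transcripts of cathepsin L rose while those of cathepsin C and the pump subunit Atp6v0d2 fell. In WT 3 of 44 members rose and 6 fell, where 6.67% of all genes tested rose and 7.58% fell. In Dnmt3aKO 2 rose and 9 fell (all genes 6.41% and 8.96%), in Tet2KO 3 rose and 7 fell (8.59% and 8.21%), and in Jak2VF 4 rose and 10 fell (8.44% and 9.72%). The share of members that rose lay near the background, and the share that fell was above it in each genotype. The median member moved by 0.06 on the log2 scale in WT, -0.15 in Dnmt3aKO, -0.05 in Tet2KO and -0.11 in Jak2VF, against a median over all genes between -0.02 and 0.00. These medians moved with single libraries. In WT the median was -0.01 without LDL library 1 and 0.13 without LDL library 2, in Tet2KO it was 0.00 without LDL library 2, and in Jak2VF it was -0.21 without vehicle library 3 and -0.22 without LDL library 2. With library totals in place of TMM scaling, 2 rose and 8 fell in WT (all genes 5.71% and 8.9%), and the WT median became -0.01. In Tet2KO 2 rose and 12 fell with library totals (6.35% and 10%). Each genotype had its own vehicle libraries, so the 4 LDL comparisons share no sample. Single libraries moved the counts in both directions. The share of all genes that rose and fell moved too and is given in brackets. In WT 6 rose and 7 fell without LDL library 2 (9.31% and 10.9%). There 1 rose and 5 fell without vehicle library 2 (4.55% and 5.67%). In Dnmt3aKO 1 rose and 6 fell without vehicle library 1 (5.32% and 6.84%) or without LDL library 3 (5.34% and 6.38%). In Tet2KO 2 rose and 4 fell without vehicle library 1 (6.27% and 6.55%) or 3 (5.98% and 6.27%). There 6 rose and 6 fell without LDL library 2 (11.5% and 9.57%). In Jak2VF 4 rose and 5 fell without vehicle library 1 (5.24% and 6.84%). Without vehicle library 2 (5.09% and 6.45%) or LDL library 1 (5.12% and 5.31%), 1 rose and 5 fell. Without LDL library 3, 2 rose and 5 fell (5.68% and 6.09%). Without LDL library 2, 1 rose and 12 fell (8.35% and 10.9%). Without vehicle library 3, 2 rose and 14 fell (12.7% and 13.1%). The length index as a covariate was an alternative chosen after the data were seen. With it 10 rose and 9 fell in Jak2VF (11.8% and 11%) and the median was -0.01. Of the 44 members 19 were called in at least 1 genotype, and 5 in all 4 genotypes: Atp6v0d2, Ctsc, Gusb and Man2b1 fell and Ctsl rose.

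**Figure D2:**
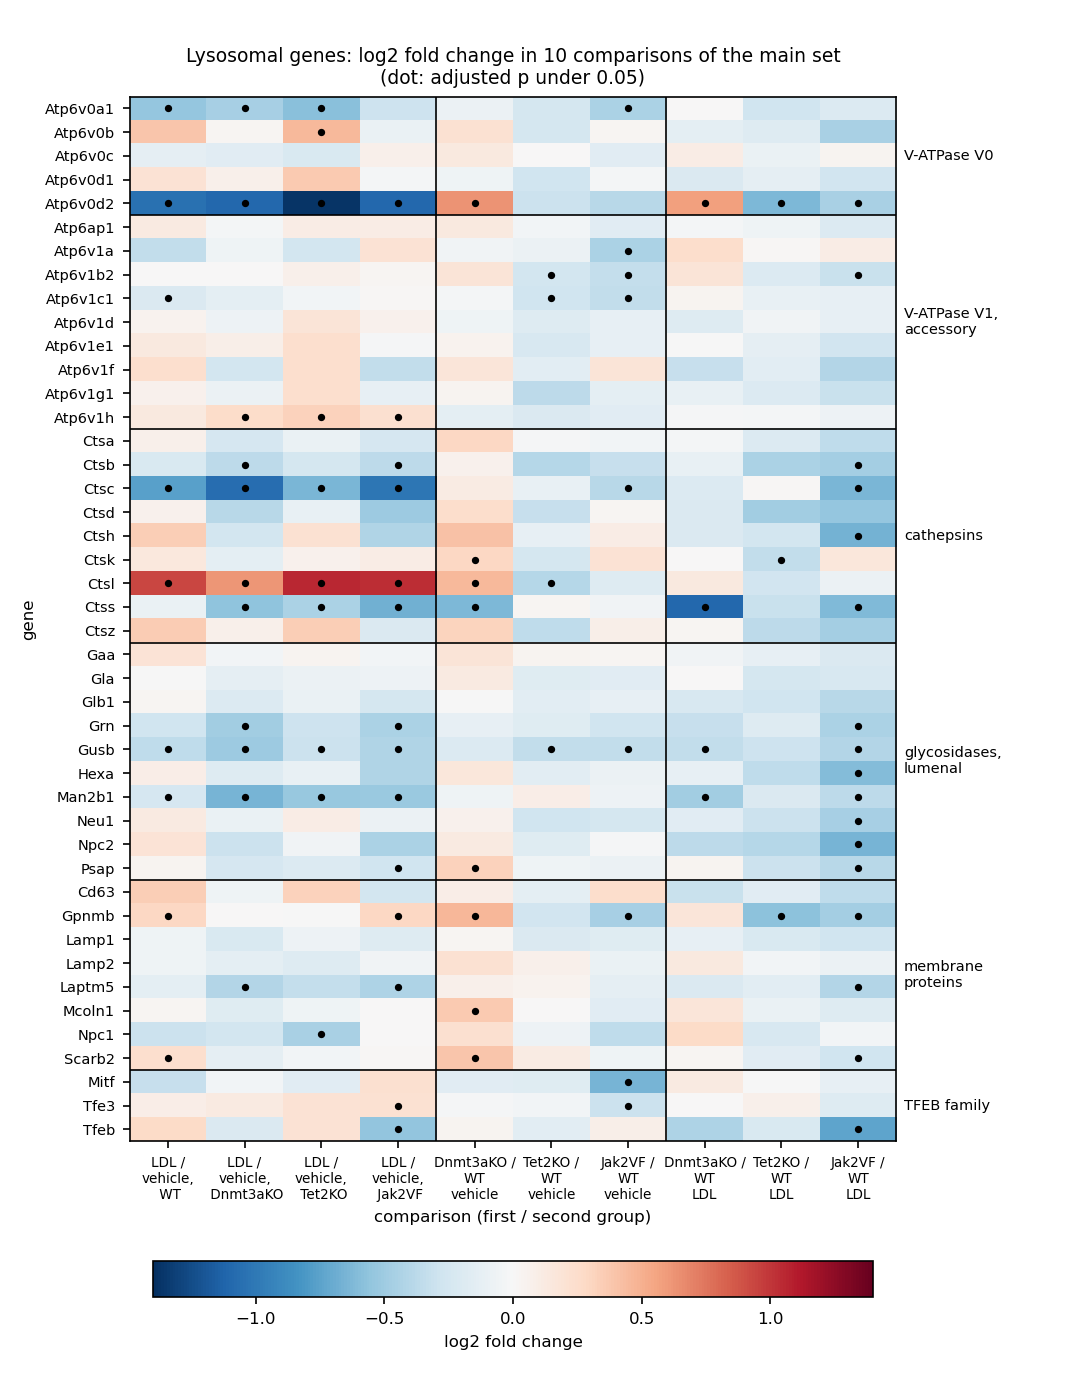
Log2 fold change of the 44 genes, grouped by role, in the 4 LDL comparisons and the 6 comparisons of a mutant genotype with WT; red is higher, blue is lower and a dot marks an adjusted p under 0.05. Ctsl is higher and Ctsc, Atp6v0d2, Gusb and Man2b1 are lower in all 4 LDL columns, and 17 members carry a dot on the lower side in Jak2VF against WT with LDL.

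Among the V0 subunits, Atp6v0d2 (ENSMUSG00000028238, GRCm38 chr4:19876841-19922605) fell most. This form of the d subunit joins the pump's membrane and cytosolic sectors and is enriched in macrophages and osteoclasts. In WT it went from 98.2, 95.7 and 95.7 CPM with vehicle to 41.1, 53.1 and 46.6 CPM with LDL. In Dnmt3aKO it went from 163, 141 and 143 to 61.8, 74.0 and 73.4 CPM. Each vehicle library lay above each LDL library within these genotypes. In Tet2KO the values were 70.3, 80.3 and 84.6 CPM with vehicle and 29.2, 37.5 and 24.3 with LDL. In Jak2VF they were 66.3, 81.5 and 73.4 and 34.8, 34.7 and 33.4 CPM. The groups were apart in these genotypes too, and the log2 changes were -1.04 in WT (adjusted p = 3.62e-06), -1.09 in Dnmt3aKO (1.61e-06), -1.37 in Tet2KO (1.19e-07) and -1.10 in Jak2VF (2.04e-06), each with an SE of 0.13. Each of these 4 calls was kept whichever library was left out. Markers of other cells moved with LDL as well. The summed osteoclast markers were at 116 to 152 CPM with LDL against 98.6 to 106 with vehicle in WT, and LDL was above vehicle in the mutants too. The neutrophil markers were lower with LDL in Dnmt3aKO (418 to 460.1 CPM against 583 to 629) and Jak2VF (301 to 356 against 507 to 672), with 6 and 7 of 8 called lower. The stromal markers were lower in Dnmt3aKO (7804 to 8563 against 10684 to 11191), Tet2KO (7635 to 9921 against 10922 to 13097) and Jak2VF (11169 to 11925 against 12118 to 16192), with 2, 2 and 1 of 6 called lower. The summed macrophage markers were lower with LDL in Dnmt3aKO, at 25998 to 28385 CPM against 30899 to 32716. The LDL and vehicle ranges of this sum overlapped in Jak2VF (18092 to 21267 against 19274 to 25728) and in WT (23024.5 to 30548 against 22416 to 28243). They overlapped in Tet2KO too (21525 to 28780 against 22452 to 23656). The part of these marker shifts in the LDL results of the 44 genes was not tested.

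Atp6v0a1, an isoform of the large a subunit that lines the proton path, also fell. It was at 121, 135 and 144 CPM in WT with vehicle and at 79.0, 95.2 and 99.9 with LDL. Its log2 change was -0.55 in WT (SE 0.10, adjusted p = 0.000727), -0.47 in Dnmt3aKO (0.00292) and -0.58 in Tet2KO (0.000421), and these calls were kept whichever library was left out. In Jak2VF it was -0.29 and not called (0.0587). The other d subunit, Atp6v0d1, was not called with LDL: its log2 values were 0.21 in WT, 0.07 in Dnmt3aKO, 0.37 in Tet2KO and -0.03 in Jak2VF (SE 0.14, smallest adjusted p 0.0778). So the macrophage form of this subunit was lower with LDL and the widely expressed form was not called in either direction. Atp6v0b, a proteolipid of the proton-carrying ring, was called higher in Tet2KO only by a narrow margin, 254, 166 and 203 CPM with LDL against 158, 135 and 160.1 with vehicle (log2 0.46, SE 0.16, adjusted p = 0.0473), and the call was lost in 5 of the 6 fits that each left out 1 library, down to 0.28. The remaining ring member, Atp6v0c, was not called with LDL, at -0.12, -0.16, -0.22 and 0.07 in the 4 genotypes.

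The V1 subunits, which hydrolyse ATP and turn the rotor, changed less. Atp6v1h, the regulatory H subunit, rose in 3 genotypes. It went from 94.8, 94.3 and 92.99 CPM to 123, 109 and 119 CPM in Tet2KO, where the change of 0.32 (SE 0.07, adjusted p = 0.00484) was kept whichever library was left out. In Dnmt3aKO the change was 0.26 (0.0217, lost without Dnmt3aKO vehicle library 1 or 3 or LDL library 3, with an adjusted p up to 0.0744) and in Jak2VF 0.22 (0.0445, lost in 5 of 6 such fits). In WT it was 0.14 and not called (0.256). Atp6v1c1, the C subunit that clamps the sectors together, fell in WT from 144, 146 and 146 to 120.4, 128 and 129.6 CPM (log2 -0.21, SE 0.05, adjusted p = 0.0112). These 6 values left a gap between the groups, but without WT LDL library 1 the change was -0.15 and no longer called (0.113). Atp6v1a, the catalytic subunit, missed the threshold in WT, at 465, 499.8 and 553 CPM with vehicle and 327, 459 and 406 with LDL (log2 -0.35, SE 0.12, adjusted p = 0.0518). Atp6v1b2, the B subunit of the same head, was at 0.00, 0.00, 0.07 and 0.02 in the 4 genotypes. Atp6v1d and Atp6v1f of the central stalk, Atp6v1e1 and Atp6v1g1 of the side stalks, and Atp6ap1 were not called in any LDL comparison, with changes from -0.35 for Atp6v1f in Jak2VF to 0.24.

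Cathepsins moved in opposite directions. Ctsl (ENSMUSG00000021477, chr13:64359337-64370890), a cysteine endopeptidase, rose in every genotype. In WT it went from 3376, 3096 and 2790.2 CPM with vehicle to 6294, 5430.1 and 6004 with LDL, and in Tet2KO from 2453, 2225 and 2370.0 to 5301, 4806 and 4598. In Jak2VF it went from 3003, 2796 and 2392 to 5279, 6338 and 5147, and in Dnmt3aKO from 4723, 4021 and 3939.8 to 6133, 6633 and 6696. No LDL library overlapped the vehicle libraries of its genotype. The log2 changes were 0.94 (adjusted p = 2.16e-06), 1.06 (4.33e-07), 1.03 (6.95e-07) and 0.62 (0.000305) in WT, Tet2KO, Jak2VF and Dnmt3aKO, with an SE of 0.11, and all 4 calls were kept whichever library was left out. Part of the Ctsl count may belong to Gm47123 and Gm49230, whose exons overlap it.

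Ctsc (cathepsin C, the peptidase that activates granule serine proteases; ENSMUSG00000030560, chr7:88278085-88310888) fell in every genotype. It was at 657, 624 and 627 CPM in WT with vehicle and at 366, 376 and 383 with LDL, and at 696, 703 and 662 against 300.2, 352 and 331 in Dnmt3aKO. In Tet2KO it was at 598, 594 and 589.6 against 382, 409 and 349.7, and in Jak2VF at 475, 524 and 462 against 248, 244 and 231. The groups did not overlap in any genotype. The log2 changes were -0.76 (adjusted p = 1.6e-07), -1.07 (1.27e-09), -0.64 (1.59e-06) and -1.02 (3.22e-09) in WT, Dnmt3aKO, Tet2KO and Jak2VF, with an SE of 0.07, and each was kept whichever library was left out. Ctss (ENSMUSG00000038642, chr3:95526786-95556403) fell in the 3 mutant genotypes and was not called in WT. In Jak2VF it went from 2823, 2639.6 and 2072 to 1598, 1721 and 1424 CPM (log2 -0.67, SE 0.15, adjusted p = 0.00322), a call that every such fit kept. In Dnmt3aKO it went from 1636, 1758 and 1629.8 to 1015, 1238 and 1152 (-0.56, 0.0112, lost without vehicle library 2 or LDL library 1, at most 0.073). In Tet2KO the change was -0.44 (0.0465, lost in 5 of 6 such fits). In WT the LDL libraries were at 3094, 1989.9 and 2183 CPM and spanned the vehicle libraries at 2922, 2488 and 2361 (-0.10, 0.719), with the highest value in the first LDL library. The differences between genotypes in this LDL effect were not called, at -0.46, -0.34 and -0.57 for Dnmt3aKO, Tet2KO and Jak2VF against WT (adjusted p = 0.325, 0.852 and 0.108).

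Ctsb fell in Dnmt3aKO (log2 -0.37, SE 0.12, adjusted p = 0.0385) and Jak2VF (-0.36, 0.0391), calls that were lost in 6 and 4 of 6 such fits. Its means were 7922 CPM with vehicle and 6129.8 with LDL in Dnmt3aKO, and 6083 and 4732 in Jak2VF. Ctsd was not called with LDL in any genotype. Its LDL libraries ran from 1839 to 3500.0 CPM in WT, around vehicle libraries from 2072 to 2809.7, and the log2 values were 0.06, -0.39, -0.10 and -0.51 in WT, Dnmt3aKO, Tet2KO and Jak2VF, with an SE of 0.21. Ctsk (cathepsin K, the collagen-cleaving protease of osteoclasts) was not called either, at 0.15, -0.13, 0.06 and 0.11. The exopeptidases Ctsa, Ctsh and Ctsz were likewise not called with LDL.

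Among the lumenal enzymes, 2 glycosidases fell with LDL in all 4 genotypes. Man2b1 (ENSMUSG00000005142, chr8:85083270-85098282), the lysosomal alpha-mannosidase, was at 748, 713 and 696 CPM in WT with vehicle and at 642, 574 and 622 with LDL. In Dnmt3aKO it was at 721, 683 and 669 against 454, 442 and 421, and in Tet2KO at 802, 757 and 747 against 545, 511 and 539. In Jak2VF it was at 721, 683 and 643 against 472, 491 and 461. The vehicle and LDL libraries were apart in each genotype, by a smaller step in WT than in the mutants. The log2 changes were -0.65 in Dnmt3aKO (adjusted p = 3.9e-07), -0.53 in Tet2KO (7.29e-06) and -0.52 in Jak2VF (9.56e-06), with an SE of 0.07 and kept whichever library was left out. In WT the change of -0.23 (0.0241) was lost in 4 of 6 such fits, where it ran from -0.25 to -0.19. Whether the step differed between genotypes is given with the interaction tests.

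Gusb (ENSMUSG00000025534, chr5:129989011-130003049), the beta-glucuronidase, fell from 599.9, 519 and 530.0 to 457, 396 and 439 CPM in WT and from 485, 495 and 466 to 364, 346 and 309 CPM in Dnmt3aKO. In Tet2KO it fell from 439, 403 and 459.8 to 377, 324 and 356, and in Jak2VF from 477, 426 and 396 to 305, 349 and 319.5. The groups did not overlap within a genotype. The log2 changes were -0.35 (adjusted p = 0.0107), -0.51 (0.000387), -0.30 (0.0271) and -0.42 (0.0027), with an SE of 0.09. The Tet2KO call was lost in 4 of 6 such fits and the WT call without WT vehicle library 1 (-0.28, 0.0584). Grn fell in Dnmt3aKO, from 1885, 1673 and 1662 to 1288, 1277 and 1147 CPM (-0.49, SE 0.13, adjusted p = 0.0123, lost without vehicle library 1 or LDL library 3, at most 0.078), and in Jak2VF (-0.44, 0.0236, lost in 4 of 6 such fits). Psap fell in Jak2VF from a mean of 3711 to 3067 CPM (-0.27, 0.0411, lost in 4 of 6). The beta-hexosaminidase subunit Hexa, acid alpha-glucosidase Gaa, alpha-galactosidase Gla, beta-galactosidase Glb1, sialidase Neu1 and the cholesterol carrier Npc2 were not called with LDL in any genotype. Npc2 was at 1524, 755 and 936 CPM in WT with LDL against 1089, 897 and 832 with vehicle, again highest in the first LDL library (log2 0.19, SE 0.19).

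Of the membrane proteins, Scarb2 (LIMP-2, which carries glucocerebrosidase to lysosomes) and Gpnmb rose in WT. Scarb2 went from 271, 253 and 272 to 343, 297 and 297 CPM (log2 0.24, SE 0.06, adjusted p = 0.0148), a call lost without WT vehicle library 2 or WT LDL library 1 (0.19 to 0.28, at most 0.0903). Gpnmb went from 3793, 3623 and 3621 to 4149, 4432 and 4961 CPM in WT (0.30, SE 0.08, 0.0152), lost without WT vehicle library 2 or 3 or LDL library 3 (at most 0.0912). In Jak2VF it went from 2837, 2636 and 2507 to 3265, 3431 and 3054 (0.29, 0.016), lost without vehicle library 2 or LDL library 1 or 2 (at most 0.0699). In Dnmt3aKO and Tet2KO Gpnmb did not separate with LDL, at 0.01 and -0.01. Npc1, the LDL cholesterol exporter, was lower with LDL in Tet2KO, 116, 157 and 171 CPM against 198, 204 and 206 (-0.45, SE 0.14, adjusted p = 0.0308), and the call was lost in 4 of 6 such fits. Its values elsewhere were -0.30, -0.26 and 0.01 in WT, Dnmt3aKO and Jak2VF, not called. Laptm5, a lysosomal protein of blood cells, fell in Dnmt3aKO (-0.41, 0.0287, lost in 6 of 6) and Jak2VF (-0.43, 0.0225, lost in 4 of 6), with means of 1298 against 975 and 1137 against 845 CPM. The structural glycoprotein Lamp1 was not called (-0.06, -0.21, -0.07 and -0.18), nor were Lamp2, Mcoln1 and the tetraspanin Cd63. The transcription factors were called with LDL in Jak2VF only: Tfeb went from 21.2, 17.4 and 14.7 to 11.0, 13.1 and 12.2 CPM (-0.55, SE 0.18, 0.0384) and Tfe3 from 106, 95.6 and 97.1 to 117, 118 and 111 (0.21, SE 0.07, 0.0438), and these calls were lost in 4 and 5 of 6 such fits. Whether this differed from WT was tested and not called (adjusted p = 0.0763 for Tfeb and 0.456 for Tfe3).

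**Figure D3:**
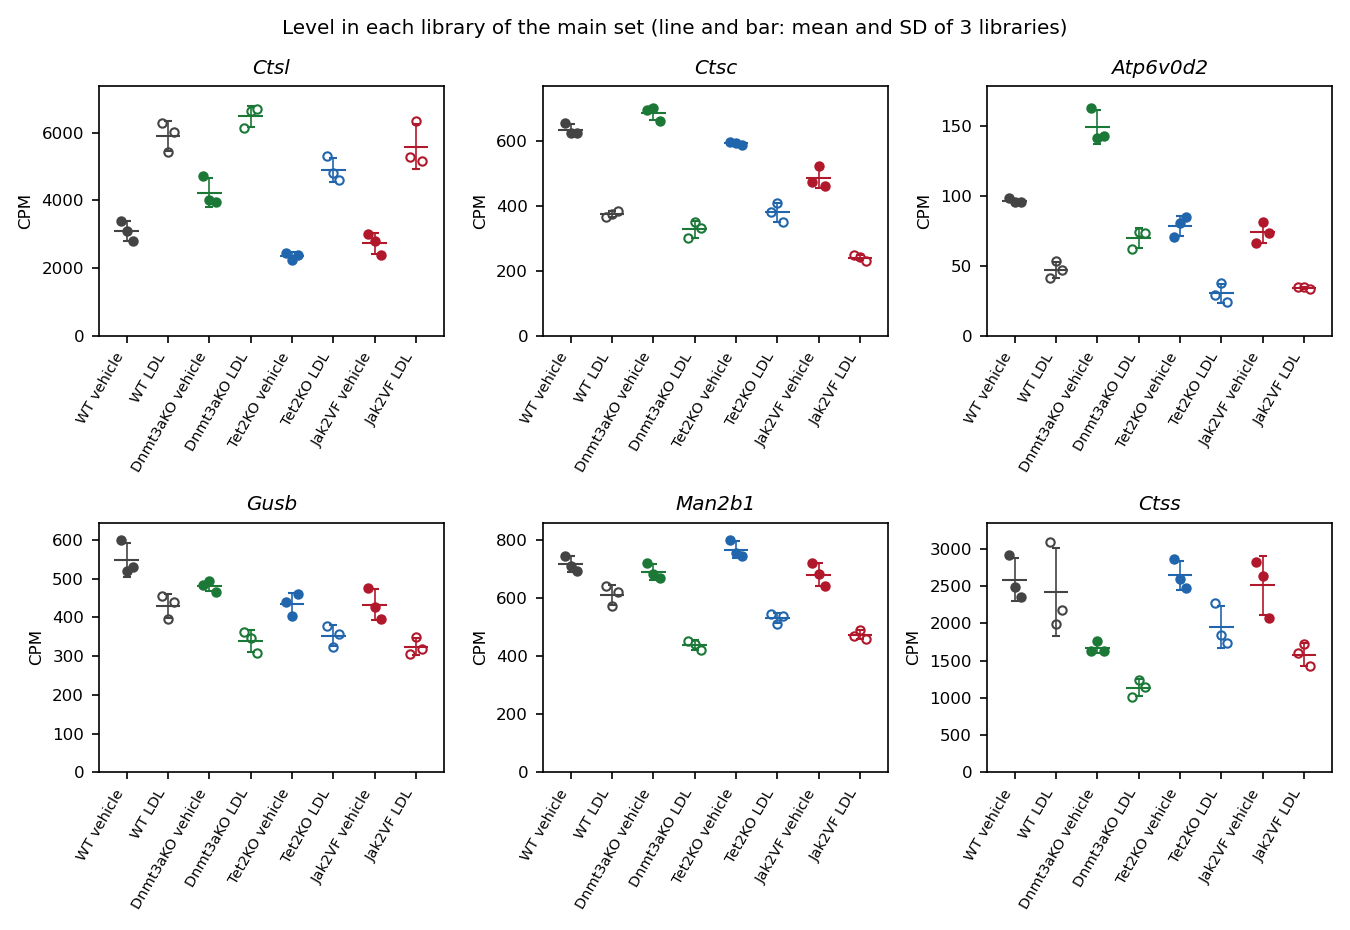
CPM in each library of Ctsl, Ctsc, Atp6v0d2, Gusb, Man2b1 and Ctss in the 8 groups of the main set; filled points are vehicle, open points are LDL, and lines with bars give the mean and SD of 3 libraries. Ctsl is higher and Ctsc, Atp6v0d2, Gusb and Man2b1 are lower in every LDL group than in the vehicle group of its genotype, and Ctss lies between 1015 and 1238 CPM in Dnmt3aKO with LDL against 1989.9 to 3094 in WT with LDL.

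The second question was how each mutant genotype differed from WT. The 3 vehicle comparisons share the WT vehicle libraries and the 3 LDL comparisons share the WT LDL libraries, so a shift of a WT library enters all of them. With vehicle, 7 members were higher and 1 lower in Dnmt3aKO, where 5.58% and 5.51% of all genes were, and the median member was at 0.12. In Tet2KO 4 members were lower (all genes 2.76% higher and 2.72% lower, median member -0.17). In Jak2VF 9 were lower (4.29% and 5.26%, median member -0.13). With LDL, 1 member was higher and 3 lower in Dnmt3aKO (8.01% and 9.46%, median -0.04), 3 were lower in Tet2KO (1.28% and 1.48%, median -0.19) and 17 were lower in Jak2VF (4.21% and 5.75%, median -0.33). The median of all genes lay between -0.03 and 0.00 in these comparisons. In Dnmt3aKO with LDL, DESeq2 size factors gave 3 higher and 3 lower (all genes 8.64% and 8.55%). Library totals gave 2 higher and 4 lower there (6.27% and 10.9%). The members' share that was lower in Jak2VF with LDL was far above the background share, but it moved with single libraries. Without WT LDL library 1, 8 members were called (all genes 2.28% lower), and 29 without WT LDL library 2 (11.8%). Without Jak2VF LDL library 1, 8 were called (2.18%), and 6 without Jak2VF LDL library 3 (1.78%). All of these members were lower. With only the Jak2VF LDL and WT LDL libraries in the fit edgeR called 1 member, and DESeq2 called 27, all lower. Other counts moved with single libraries too. In Dnmt3aKO with vehicle, 4 were higher and 1 lower without WT library 3 (all genes 4.1% and 4.13%). The same counts came without Dnmt3aKO library 1 (4.35% and 4.03%). In Jak2VF with vehicle, 5 were lower without Jak2VF library 2 (all genes 2.79% lower). In Tet2KO with vehicle, 1 or 2 were lower without WT library 1 or 2 or any of its own 3 libraries. All genes were then 1.52% to 1.97% lower. With LDL and without WT library 2, 2 were higher and 8 lower in Dnmt3aKO, where 14% and 15.8% of all genes were. In Tet2KO that fit gave 5 lower, where 2.05% of all genes were. With the length index as a covariate 10 were higher and 3 lower in Dnmt3aKO with LDL (all genes 8.04% and 9.63%).

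In Dnmt3aKO macrophages with vehicle, all 8 membrane proteins and 8 of the 9 cathepsins had positive log2 values, and 3 and 2 of them passed the test as higher. Scarb2 was at 345, 352 and 342 CPM against 271, 253 and 272 in WT (log2 0.38, SE 0.06, adjusted p = 0.000258). Mcoln1 was at 81.8, 77.1 and 76.5 CPM against 62.8, 59.2 and 60.5 (0.37, SE 0.06, 0.000335), and Gpnmb at 5464, 4844 and 4912 against 3793, 3623 and 3621 (0.46, SE 0.08, 0.000393). Every Dnmt3aKO library lay above every WT library for these 3 genes, and the calls were kept whichever library was left out. Atp6v0d2 was higher with vehicle (0.62, SE 0.13, 0.00152) and with LDL, where Dnmt3aKO was at 61.8, 74.0 and 73.4 CPM and WT at 41.1, 53.1 and 46.6 (0.57, 0.00359), again in every such fit. Ctsl was higher with vehicle, 4723, 4021 and 3939.8 against 3376, 3096 and 2790.2 CPM (0.45, SE 0.11, 0.00728), a call lost without WT vehicle library 3 or Dnmt3aKO vehicle library 1 (at most 0.0549). Ctsk was at 112, 112 and 105 CPM against 100.045, 90.8 and 80.0 (0.29, SE 0.08, 0.03), and Psap at a mean of 4891 against 3923 (0.32, 0.0255), calls lost in 4 and 5 of 6 such fits.

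Ctss ran the other way in Dnmt3aKO. With vehicle it was at 1636, 1758 and 1629.8 CPM against 2922, 2488 and 2361 in WT (log2 -0.63, SE 0.15, adjusted p = 0.00652). With LDL it was at 1015, 1238 and 1152 against 3094, 1989.9 and 2183 (-1.09, 2.9e-05). This LDL call was kept whichever library was left out, with values from -1.22 to -0.88. The Dnmt3aKO libraries lay below all WT libraries under both treatments. Man2b1 was lower with LDL (-0.48, SE 0.07, 3.85e-05, kept in every such fit) and Gusb too (-0.34, SE 0.09, 0.0134, lost without WT LDL library 1 or 3 or Dnmt3aKO LDL library 3, at most 0.0982). Cell markers moved with this genotype. The summed macrophage markers were at 30899 to 32716 CPM in Dnmt3aKO against 22416 to 28243 in WT with vehicle, although 0 of 7 were called. The summed osteoclast markers were at 154 to 174 CPM in Dnmt3aKO against 98.6 to 106 in WT with vehicle, and at 219.6 to 239.7 against 116 to 152 with LDL. Of the 7 osteoclast markers Acp5, Mmp9 and Nfatc1 made up nearly all of the sum, while Calcr reached at most 0.164, Ocstamp 0.787 and Oscar 0.543 CPM in any library of the main set. The summed neutrophil markers were at 583 to 629 CPM in Dnmt3aKO and 162 to 223 in WT with vehicle, with Ly6g at most 0.291 CPM. Their part in these differences was not tested.

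In Tet2KO macrophages with vehicle, 4 members were lower by small steps. Atp6v1c1 was at 118, 123 and 120.1 CPM against 144, 146 and 146 in WT (log2 -0.27, SE 0.05, adjusted p = 0.00286), a call that every fit with 1 library left out kept. Atp6v1b2 was at 237, 228 and 235 against 293, 270.4 and 274 (-0.26, SE 0.07, 0.0271), Gusb at 439, 403 and 459.8 against 599.9, 519 and 530.0 (-0.34, 0.028) and Ctsl at 2453, 2225 and 2370.0 against 3376, 3096 and 2790.2 (-0.39, 0.0346). These 3 calls were lost in 6, 4 and 5 of 6 such fits, although no Tet2KO library overlapped WT. Neutrophil markers were low in this group, 35.3 to 43.9 CPM in sum against 162 to 223, and their part was not tested. With LDL, Gpnmb was lower, 3063, 2984 and 3071 CPM against 4149, 4432 and 4961 (-0.57, SE 0.08, 0.000154), as was Atp6v0d2, 29.2, 37.5 and 24.3 against 41.1, 53.1 and 46.6 (-0.63, SE 0.13, 0.00565), each in every such fit. Ctsk was lower, 80.9, 81.2 and 75.4 against 102, 96.1 and 103 CPM (-0.34, SE 0.08, 0.0274), a call lost in 4 of 6. The groups were apart for all 3 genes. With vehicle Gpnmb was at -0.27 (0.0588) and Atp6v0d2 at -0.30 (0.208), not called. The astrocyte gene Gfap, 1 of 7 brain markers listed, was highest in 1 library on each side of the LDL comparison. It was at 2.72 CPM in WT LDL library 3 and 4.26 CPM in Tet2KO LDL library 3, against at most 0.714 elsewhere in the main set. The 7 markers summed to 94.0 to 106 CPM in WT and 104 to 122 in Tet2KO with LDL. With vehicle their sum was 84.1 to 92.7 CPM in WT and 99.6 to 110 in Tet2KO. Without WT LDL library 3 and Tet2KO LDL library 3 only 1 of the 3 members was called, Gpnmb. With LDL the summed osteoclast markers were higher in Tet2KO, 169 to 191 CPM against 116 to 152, and the neutrophil markers lower, 39.7 to 59.6 against 127 to 216; their part was not tested. With only the groups compared in the fit, edgeR called 0 of 44 members here (all genes 0.103% lower). DESeq2, fitted to all 24 libraries, called 7 lower, where 2% of all genes were.

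In Jak2VF macrophages with vehicle, the 9 lower members were 4 of 14 pump subunits, 2 of 3 transcription factors, and Gpnmb, Ctsc and Gusb. Mitf was at 32.1, 35.8 and 40.2 CPM against 51.7, 58.8 and 59.8 in WT (log2 -0.66, SE 0.12, adjusted p = 0.00114), and Tfe3 at 106, 95.6 and 97.1 against 127, 122 and 119 (-0.30, SE 0.07, 0.00984). The groups were apart for both; the Tfe3 call was lost without Jak2VF vehicle library 2 (0.075) and the Mitf call in no such fit. Atp6v1c1 was at 117, 117 and 111 CPM against 144, 146 and 146 (-0.34, SE 0.05, 0.000365), and Atp6v1b2 at 222, 224 and 219 against 293, 270.4 and 274 (-0.33, SE 0.07, 0.00337), both kept in every such fit. Atp6v1a was at 329.5, 359 and 425 against 465, 499.8 and 553 (-0.45, SE 0.12, 0.0182, lost in 4 of 6), and Atp6v0a1 at 91.4, 95.6 and 107 against 121, 135 and 144 (-0.45, SE 0.10, 0.00818, lost without WT vehicle library 3 or Jak2VF vehicle library 1 or 2, at most 0.0629). Gpnmb (-0.47, SE 0.08, 0.000728) and Ctsc (-0.38, SE 0.07, 0.00173) were lower in every such fit, and Gusb (-0.34, SE 0.09, 0.019) was lost without WT vehicle library 1 or Jak2VF vehicle library 2 or 3 (at most 0.105). Atp6v0d2 missed the threshold (-0.39, 0.0546). Markers of other cells were higher in Jak2VF: neutrophil markers summed to 507 to 672 CPM (162 to 223 in WT; 7 of 8 called) and stromal markers to 12118 to 16192 CPM (10440.2 to 11527 in WT; 2 of 6 called). Their part was not tested.

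With LDL, 41 of the 44 members had negative log2 values in Jak2VF against WT and 17 were called lower. By role these were 7 of the 10 lumenal proteins, 4 of 9 cathepsins, 3 of 8 membrane proteins, 1 of 5 V0 subunits, 1 of 9 V1 subunits and 1 of 3 transcription factors. Ctsc was at 248, 244 and 231 CPM against 366, 376 and 383 (log2 -0.64, SE 0.07, adjusted p = 1.74e-05), and Gpnmb at 3265, 3431 and 3054 against 4149, 4432 and 4961 (-0.47, SE 0.08, 0.0009). Man2b1 was at 472, 491 and 461 CPM against 642, 574 and 622 (-0.37, SE 0.07, 0.00176), and Atp6v1b2 at 226, 231 and 219.8 against 263, 275 and 301 (-0.31, SE 0.07, 0.00799). The groups were apart, and these 4 calls were kept whichever library was left out. The other 13 calls each rested on single libraries. Without Jak2VF LDL library 3, the calls of Neu1 (-0.46, 0.00903; then at most 0.0555) and Psap (-0.39, 0.0107; 0.0727) were lost, and Ctss (-0.62, 0.0134) was lost without that library or WT LDL library 1 (at most 0.0923). Gusb (-0.41, 0.00804) was lost without Jak2VF LDL library 1 (0.0538), and Scarb2 (-0.28, 0.00903) without WT LDL library 1 (-0.22, 0.0645).

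Hexa (log2 -0.60, adjusted p = 0.0205), Ctsh (-0.66, 0.0172), Ctsb (-0.47, 0.0172), Grn (-0.44, 0.0386), Npc2 (-0.65, 0.0347) and Tfeb (-0.74, 0.0152) were each lost without WT LDL library 1, Jak2VF LDL library 1 or Jak2VF LDL library 3. In these fits the value of Npc2 ran from -0.85 to -0.31, of Hexa from -0.73 to -0.40, of Ctsh from -0.80 to -0.45 and of Grn from -0.55 to -0.26. Npc2 overlapped between the groups, at 668, 762 and 618 CPM in Jak2VF and 1524, 755 and 936 in WT. Tfeb was at 11.0, 13.1 and 12.2 CPM against 23.6, 16.9 and 20.1, with no overlap. Laptm5 (-0.41, 0.0433) and Atp6v0d2 (-0.45, 0.0285) were lost in 5 and 4 of 6 such fits. Lamp1 missed the threshold (-0.28, 0.0525). The length index was 0.68, -0.10 and 0.22 in the WT LDL libraries and -0.30, 0.10 and -0.28 in the Jak2VF LDL libraries. The index therefore moved with this comparison. With it as a covariate 17 members were lower and 1 was higher, where 5.9% and 4.77% of all genes were. Of the 17 calls 14 were kept, those of Grn, Npc2 and Laptm5 were lost, and the median member went from -0.33 to -0.15. The macrophage markers were lower too, 18092 to 21267 CPM in sum against 23024.5 to 30548, with 4 of 7 called lower, and 2 of 6 stromal markers were called higher. The part of these shifts in the members' values was not tested.

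**Figure D4:**
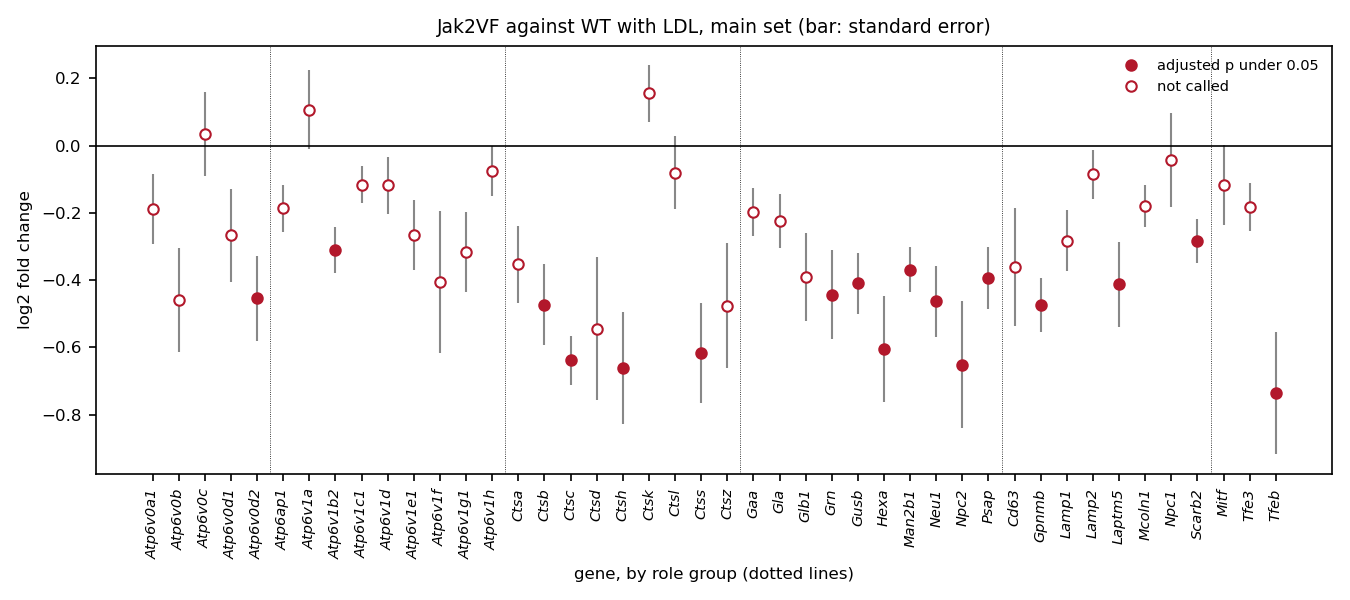
Log2 fold change of each of the 44 genes in Jak2VF against WT, both with LDL, with bars of 1 SE; filled points have an adjusted p under 0.05. The points of 41 genes lie below 0, 17 of them are filled, and the lowest is Tfeb at -0.74.

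Interaction tests asked whether the effect of LDL differed between a mutant genotype and WT. edgeR called 0 of 44 members in each of the 3 tests. All genes called were 0.19% higher and 0.242% lower for Dnmt3aKO, 0.0411% and 0.0617% for Tet2KO, and 1.51% and 0.962% for Jak2VF. At an unadjusted p under 0.05 there were 10, 4 and 16 members, and 2744, 1428 and 5236 of all 19444 genes. DESeq2 called 2, 1 and 6 members. For Dnmt3aKO it called 2.36% of all genes, where edgeR called 0.432%. The edgeR shares are therefore no background for the DESeq2 counts, and its shares for Tet2KO and Jak2VF are not given here. Man2b1 came nearest: its fall was steeper in Dnmt3aKO than in WT by 0.42 on the log2 scale (value -0.42, SE 0.10, adjusted p = 0.0508). In Jak2VF, Atp6v1a (0.55, SE 0.17, 0.0699), Mitf (0.54, SE 0.17, 0.0761), Ctsh (-0.77, SE 0.24, 0.0745) and Tfeb (-0.82, SE 0.26, 0.0763) missed the threshold. The Jak2VF count was 5 without WT vehicle library 1, 11 without WT LDL library 2 and 8 without Jak2VF vehicle library 3. The Dnmt3aKO count was 1 without WT vehicle library 1 (0.679% of all genes called) and 2 without WT LDL library 2 (3.32%). An LDL effect called in one genotype and not in another is therefore not shown to differ for these genes.

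Batch 1 repeated part of the design with other levels: the 44 genes took 10.2% to 10.5% of counts in WT with vehicle there, against 3.65% to 3.995% in the main set, and levels are compared only within a set. The 2 sets were fitted apart. Over both genotypes of batch 1, edgeR called 0 of 44 members changed with LDL (all genes 0.155% higher and 0.116% lower). At an unadjusted p under 0.05 there were 8 members, and 1662 of all 15481 genes. DESeq2 called 1 member, and without Tet2KO vehicle library 3 edgeR called 1. Atp6v0d2 was nearest, at 381 and 400.4 CPM with LDL against 486, 504 and 471 in WT, and at 155 and 132 against 236, 227 and 194 in Tet2KO (log2 -0.46, SE 0.08, adjusted p = 0.0648). Its LDL libraries lay below the vehicle libraries in both genotypes. Ctsl was at 12139.6 and 9937 CPM with LDL against 9937, 7010.1 and 7743 in WT (0.27 over both genotypes, SE 0.12, 0.447). Ctsc, which fell in all 4 genotypes of the main set, did not separate in batch 1, at 146 and 149 CPM with LDL against 162, 151 and 134 in WT (0.01, SE 0.10, 0.993). The length index of batch 1 was 0.42 and -0.28 in WT with LDL and 0.02, -0.02 and -0.08 with vehicle. In Tet2KO it was 0.09 and -0.03 with LDL and -0.08, 0.27 and -0.28 with vehicle.

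Tet2KO against WT in batch 1 gave 4 lower members with vehicle (all genes 0.73% higher and 1.16% lower; median member -0.18) and 1 with LDL (0.245% and 0.291%; median -0.23). Atp6v0d2 was at 236, 227 and 194 CPM in Tet2KO and 486, 504 and 471 in WT with vehicle (log2 -1.15, SE 0.10, adjusted p = 0.000973). With LDL it was at 155 and 132 against 381 and 400.4 (-1.45, SE 0.12, 0.00287). The genotypes were far apart and the calls were kept whichever library was left out; with only the groups compared in the fit the LDL call was lost. Gpnmb was at 18254, 13791 and 12068 CPM against 24893, 24545 and 24912 with vehicle (-0.75, SE 0.16, 0.0488). With LDL it was at 11359 and 10134 against 20266 and 22009.8 (-0.98, SE 0.19), which was not called (0.0655). Atp6v1b2 was at 681, 568 and 490.3 against 883, 973 and 879.9 with vehicle (-0.65, SE 0.13, 0.0395), and Psap at 8657, 9465 and 7636 against 14059.6, 14708 and 13703 (-0.72, SE 0.13, 0.0237). No Tet2KO library overlapped WT for these genes, yet the calls of Gpnmb, Atp6v1b2 and Psap were each lost in 5 of the 6 fits with 1 library left out, and the count fell to 1 without any 1 of the 3 WT vehicle libraries or Tet2KO vehicle library 3 and to 2 without Tet2KO vehicle library 2. Ctsl was at 4974, 5600.4 and 5200.2 CPM against 9937, 7010.1 and 7743 and was not called (-0.65, SE 0.15, 0.0701). In the main set, Tet2KO was lower than WT for Atp6v0d2 and Gpnmb with LDL and for Atp6v1b2 and Ctsl with vehicle. The Atp6v1b2 and Ctsl calls there were lost in 6 and 5 of 6 fits with 1 library left out. Atp6v0d2 and Gpnmb were not called with vehicle in the main set. Psap was not called in Tet2KO of the main set, with vehicle at 1345 to 1409 CPM per kb against 1346 to 1509 in WT. Cell markers moved too: the summed macrophage markers were at 20950.4 to 26174 CPM in Tet2KO against 29285 to 30403 in WT with vehicle, where 0 of 7 were called, and the neutrophil markers at 15.6 to 42.2 against 79.5 to 99.4. Summed stromal markers were at 623 to 3340 CPM in Tet2KO and 407 to 714 in WT with vehicle, and osteoclast markers at 109 to 120.5 against 196 to 212; their part was not tested.

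**Figure D5:**
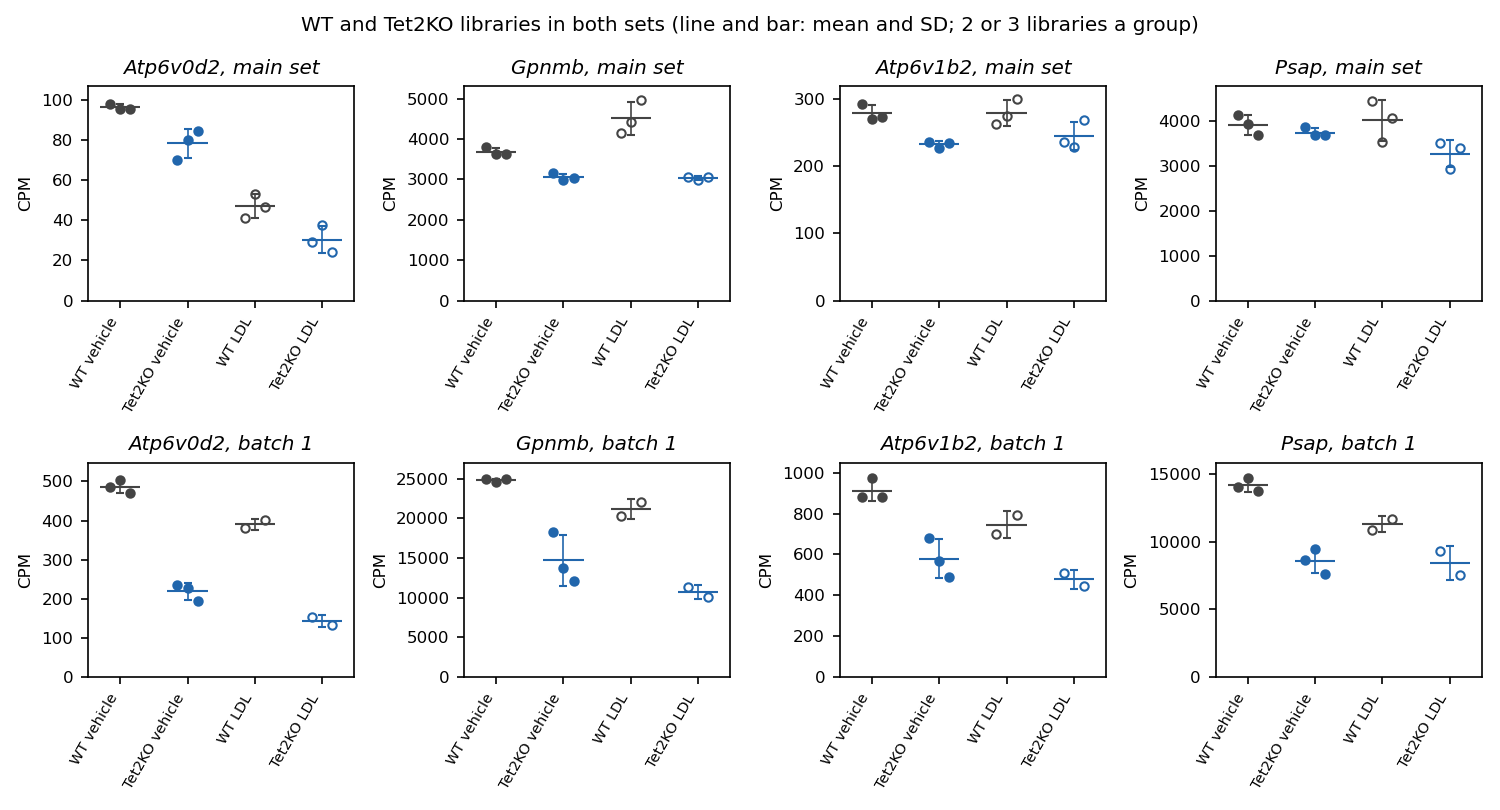
CPM in each library of Atp6v0d2, Gpnmb, Atp6v1b2 and Psap in WT and Tet2KO, the main set above and batch 1 below; filled points are vehicle, open points are LDL, and lines with bars give the mean and SD of 2 or 3 libraries. Atp6v0d2 is lower in Tet2KO than in WT with LDL in both sets, 24.3 to 37.5 against 41.1 to 53.1 CPM and 132 to 155 against 381 to 400.4 CPM.

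The other genes of the pathway, from lists that share no gene with the 44, moved as follows. Of 34 other lysosomal hydrolases and their cofactors, 2 rose and 8 fell with LDL in WT, 2 and 15 in Dnmt3aKO, 3 and 12 in Tet2KO, and 0 and 10 in Jak2VF. Over all genes 6.67% rose and 7.58% fell in WT, 6.41% and 8.96% in Dnmt3aKO, 8.59% and 8.21% in Tet2KO, and 8.44% and 9.72% in Jak2VF. Pla2g15, the lysosomal phospholipase, had means of 119 CPM with LDL and 173 with vehicle in WT (log2 -0.54, SE 0.09) and fell by 1.10, 0.92 and 1.06 on the log2 scale in Dnmt3aKO, Tet2KO and Jak2VF. Lgmn, the asparaginyl peptidase that processes cathepsins, went from a mean of 2125 to 1495 CPM in WT (-0.51, SE 0.12), and fell by 0.99, 0.68 and 0.96 in the mutants. Galc (galactosylceramidase) was at -0.58 in WT, -0.66 in Dnmt3aKO, -0.61 in Tet2KO and -0.39 in Jak2VF. These 3 hydrolases fell in all 4 genotypes, as Ctsc and Man2b1 did, and the LDL calls of these 3 genes were kept whichever library was left out. Acp5, the tartrate-resistant acid phosphatase, was far higher in Dnmt3aKO, 57.2 against 15.4 CPM with vehicle (1.89, SE 0.13, adjusted p = 3.12e-09) and 74.4 against 24.1 with LDL (1.63, 1.43e-08). Lipa, the acid lipase that frees LDL cholesterol, had a mean of 322 CPM in Jak2VF and 496 in WT with vehicle (-0.62, SE 0.09, 0.000111), and of 641 in Dnmt3aKO (0.37, 0.0073, lost without Dnmt3aKO vehicle library 1 at 0.0522).

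Among 27 other membrane proteins tested of 28 listed, 4 rose and 4 fell in WT with LDL, 3 and 10 in Dnmt3aKO, 4 and 11 in Tet2KO, and 5 and 5 in Jak2VF, where all genes were at 6.67% and 7.58%, 6.41% and 8.96%, 8.59% and 8.21%, and 8.44% and 9.72%. Slc11a1, the phagosomal metal transporter NRAMP1, rose from a mean of 134 to 298 CPM in WT (log2 1.15, SE 0.09), and by 0.88, 1.10 and 0.83 in Dnmt3aKO, Tet2KO and Jak2VF. Its Dnmt3aKO mean of 248 CPM with vehicle lay above WT (0.88, adjusted p = 1.01e-06). The endolysosomal cation channels split: Tpcn2 rose by 0.57, 0.46, 0.39 and 0.46, and Tpcn1 was at -0.42, -0.78, -0.66 and -0.32 in WT, Dnmt3aKO, Tet2KO and Jak2VF, with the WT call lost without WT LDL library 1 (-0.29) and the Jak2VF call in 5 of 6 such fits. Hgsnat, which acetylates heparan sulfate at the membrane, fell in all 4 (-0.56, -0.66, -0.52 and -0.38). In enzyme sorting, 13 genes, M6pr (the cation-dependent mannose 6-phosphate receptor) rose in all 4 genotypes (0.45, 0.44, 0.56 and 0.55, SE 0.07), and Sort1 (sortilin) was higher in Dnmt3aKO with vehicle, 112 against 55.2 CPM (1.02, SE 0.14), and with LDL (1.24).

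The shares of all genes that rose and fell with LDL, 6.67% and 7.58% in WT, 6.41% and 8.96% in Dnmt3aKO, 8.59% and 8.21% in Tet2KO, and 8.44% and 9.72% in Jak2VF, are the background for the counts that follow. Of 19 genes of mTORC1 and folliculin at the lysosome, 5 fell in WT with LDL, 3 in Dnmt3aKO, 4 in Tet2KO and 3 in Jak2VF; Rheb, named after its value was seen, rose in Tet2KO. Rragd, a Rag GTPase, went from a mean of 15.7 to 9.04 CPM in WT (log2 -0.79, SE 0.13), and fell by 0.65, 0.96 and 0.69 in Dnmt3aKO, Tet2KO and Jak2VF. Flcn (folliculin, which activates RagC and RagD) was at -0.28, -0.48, -0.37 and -0.21 and Rragc at -0.37, -0.24, -0.26 and -0.22; the Jak2VF calls of both were lost in 4 of 6 such fits, and the Dnmt3aKO call of Rragc in 3 of 6. These transcripts were lower with LDL while Tfeb and Tfe3 themselves were called only in Jak2VF. Of 30 autophagy genes, 3 rose and 5 fell in WT, 2 and 6 in Dnmt3aKO, 3 and 8 in Tet2KO, and 1 and 4 in Jak2VF. Uvrag rose in all 4 genotypes (0.62, 0.52, 0.66 and 0.50, SE 0.09), and Ulk2, a kinase that starts autophagy, was at -0.56, -0.51, -0.57 and -0.27, the last lost in 5 of 6 such fits. Of 7 other V-ATPase subunits tested of 11 listed, Atp6ap2 was lower with LDL in WT (-0.30, SE 0.07) and lower in Jak2VF with vehicle (-0.34). Atp6v0e2 was higher in Dnmt3aKO, at a mean of 4.69 against 1.63 CPM with vehicle (1.52, SE 0.20) and 6.10 against 2.16 with LDL (1.497). Of 7 cathepsin inhibitors, Cstb (cystatin B) rose with LDL in Tet2KO (0.67, SE 0.14, adjusted p = 0.00174) and in WT (0.42, 0.0436, groups overlapping and the call lost in 4 of 6 such fits). Cst7 (cystatin F, an inhibitor of cathepsin C) was lower in Dnmt3aKO, at means of 1.22 against 3.92 CPM with vehicle (-1.68, SE 0.19) and 1.23 against 4.50 with LDL (-1.86).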

How the data were processed

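The set comprises 34 RNA sequencing libraries, and the authors deposited whole-number read counts per gene in 2 tables; the deposited file names call the values normalized, but they are whole numbers with different totals and were treated as counts. Reads were aligned to mm10 (GRCm38), per the submitters' processing notes; no aligner, counter or annotation was named (not given in the sources used here), and the labels name both rRNA depletion and poly-A selection. Groups came from the labels, and no column was left out.

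Each table was scaled by TMM and fitted with edgeR 4.0.16 (R 4.3.3, limma 3.58.1) by its quasi-likelihood test over all its groups, 1 mean per group, with no block. A gene entered the test if 3 libraries (2 in batch 1) each had 10 counts of it or more, which kept 99.9% of counts; the residual degrees of freedom were 16 and 6, the common biological coefficient of variation 0.137 and 0.199. Adjusted p-values are Benjamini-Hochberg over all genes tested in 1 comparison. The script was tested on simulated data. Alternatives were DESeq2 1.42.0, other scalings, no filter on low counts, only the groups compared, a replicate block, and each library left out in turn. A length index covariate was added after the data were seen.

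The 44 genes and all other lists were chosen with earlier results of these data known. In each role group the text names up to 3 called members with the smallest adjusted p over the LDL comparisons and up to 3 over the genotype comparisons, any member called in an interaction, and Ctsd, Ctsk, Lamp1, Gpnmb, Atp6v0d1, Atp6v0d2, Npc1, Npc2, Tfeb, Tfe3 and Mitf. From other lists it names up to 4 called genes per list and kind of comparison; 1 gene that this names is not reported here. Members beyond this rule are named to account for all 44.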

Additional observations from a re-analysis of the deposited data

Results flagged for a closer look

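In 2 lysosomal hydrolases and 1 activator protein outside the 44 genes the effect of LDL differed between Jak2VF and WT by the interaction test of edgeR. Gm2a, the activator protein for the breakdown of ganglioside GM2, was at 374, 314 and 283 CPM in WT with vehicle and 420.4, 316 and 385 with LDL, and at 349, 352 and 282 against 233, 259 and 217 in Jak2VF; the LDL effect differed by -0.68 on the log2 scale (SE 0.16, adjusted p = 0.0334). Its Jak2VF libraries were lower with LDL without overlap, while the WT libraries overlapped.

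Ctsf, cathepsin F, was at 28.9, 23.4 and 22.3 CPM in WT with vehicle and 33.5, 23.0 and 25.8 with LDL, and at 33.3, 35.2 and 28.2 against 16.1, 23.9 and 18.4 in Jak2VF (difference -0.87, SE 0.22, adjusted p = 0.0416). Pla2g15 fell in both genotypes and more in Jak2VF, from 160.4, 162 and 143 to 70.0, 82.9 and 70.1 CPM, against 188, 168 and 163 to 122, 107 and 128 CPM in WT (difference -0.52, SE 0.13, adjusted p = 0.0374). Each of the 3 calls was lost in 8 of the 12 fits that left out 1 library, with an adjusted p up to 0.121 for Gm2a, 0.141 for Ctsf and 0.129 for Pla2g15.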

How the results depend on the processing

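Of the 94 calls of a member in a comparison, 44 were kept whichever single library was left out, 27 under every alternative run, and 0 reversed their sign. Counts below are of the 44 members called changed, and the cause of a moved count was not tested. With only the groups compared, LDL changed 4 in WT (9 in the full fit), 21 in Dnmt3aKO (11), 5 in Tet2KO (10) and 8 in Jak2VF (14). All genes called there were 6.49% (14.2% in the full fit), 28.5% (15.4%), 7.57% (16.8%) and 12.3% (18.2%). Jak2VF against WT gave 2 with vehicle (9) and 1 with LDL (17), and Tet2KO with LDL 0 (3). All genes called were 3.72% (9.55%), 1.36% (9.97%) and 0.195% (2.76%). Tet2KO in batch 1 gave 1 with vehicle (4) and 0 with LDL (1). With the length index as a covariate, LDL changed 18, 23 and 24 in WT, Dnmt3aKO and Tet2KO (all genes 21.4%, 28.3% and 25%). The mutants differed from WT in 23, 14 and 30 with vehicle (22.2%, 11.6% and 18.6%). With LDL, Dnmt3aKO and Tet2KO differed from WT in 13 and 14 (17.7% and 5.93%). The interactions gave 3, 2 and 1 (3.72% for Dnmt3aKO), and batch 1 gave 1 for LDL and 7 and 2 for Tet2KO. DESeq2 called 8 in Tet2KO with vehicle (7.14% of all genes). With LDL it called 8, 7 and 27 in Dnmt3aKO, Tet2KO and Jak2VF (20.6%, 3.89% and 14.2%). It called 2, 1 and 6 in the interactions (2.36% for Dnmt3aKO), and 1 for LDL and 5 for Tet2KO with LDL in batch 1. Library totals gave 5 in Tet2KO with LDL (2.83% of all genes) and 1 in the Dnmt3aKO interaction (0.463%). In batch 1 they gave 1 for LDL and 2 for Tet2KO with vehicle. With no filter on low counts the Jak2VF interaction gave 7 and batch 1 Tet2KO with LDL 2. Without WT LDL library 3 and Tet2KO LDL library 3, where Gfap was highest, Tet2KO with LDL gave 1 (1.49% of all genes).

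Leaving out each library in turn gave 6 to 13, 7 to 9, 6 to 12 and 6 to 16 for LDL in WT, Dnmt3aKO, Tet2KO and Jak2VF. All genes called in these fits were 9.6% to 20.2%, 11.7% to 12.4%, 11.9% to 21% and 10.4% to 25.9%. Against WT with vehicle it gave 5 to 9, 1 to 3 and 5 to 9 for Dnmt3aKO, Tet2KO and Jak2VF. All genes called were 8.03% to 9.46%, 3.31% to 4.28% and 5.17% to 10.6%. With LDL it gave 3 to 10, 2 to 5 and 6 to 29, where all genes called were 9.47% to 29.8%, 1.86% to 4.19% and 3.25% to 23.1%. For the interactions it gave 0 to 2, 0 to 0 and 0 to 11. In batch 1 it gave 0 to 1 for LDL, and 1 to 3 and 1 to 1 for Tet2KO with vehicle and LDL.

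The replicate numbers were not used to pair the samples in the main fit. The check below uses deviations from means of 2 or 3 libraries, so it cannot show whether same-numbered samples were paired. Deviations of same-numbered libraries correlated at -0.23 to 0.40 over 12 pairs by title (3 over 0.1), at -0.43 to 0.40 over 8 pairs by description (1 over 0.1), and at -0.49 to 0.45 over 4 pairs in batch 1 (3 over 0.1), so not every pair was over 0.1 in any of them. With a replicate block by title, LDL changed 14 members in WT (15.6% of all genes), the Jak2VF interaction gave 5, and batch 1 Tet2KO with vehicle gave 1. With a replicate block by description number LDL changed 3, 4, 5 and 3 in WT, Dnmt3aKO, Tet2KO and Jak2VF. All genes called there were 3.07%, 4.46%, 3.66% and 2.79%. Only the 8 pairs by description inform the LDL effect in that fit, since an unmatched library stands alone in its block. With 3 libraries a group, or 2 in batch 1 with LDL, small differences are not detectable.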

Other observations

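Pla2g15 and Lgmn, which fell with LDL in all 4 genotypes, were also lower in the mutants than in WT with LDL. Pla2g15 was at a mean of 118.9 CPM in WT and at 89.9, 89.9 and 74.3 in Dnmt3aKO, Tet2KO and Jak2VF (log2 -0.40, -0.40 and -0.68, SE 0.09). The Tet2KO call was lost without Tet2KO LDL library 2 or WT LDL library 3 (adjusted p at most 0.089). Lgmn was at -0.62, -0.48 and -0.81 (SE 0.12), with the Tet2KO call lost in 4 of 6 fits that left out 1 library. Hgsnat was lower in Tet2KO with vehicle, 109 against 162 CPM (-0.57, SE 0.08), and with LDL, 76.2 against 110 CPM (-0.52). Tpcn2 was higher with vehicle in Dnmt3aKO (0.30, SE 0.07) and Tet2KO (0.35), and these 2 calls were kept whichever library was left out. Acp5 was higher in Jak2VF with vehicle, 26.4 against 15.4 CPM (0.78, SE 0.13, adjusted p = 0.000422), and rose with LDL in WT (0.65, 0.00096) and Tet2KO (0.54, 0.00534).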
